A study of Homo sapiens with 6 samples.

Results

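Mitosis and spindle genes encode the proteins that condense chromosomes, build the spindle, attach chromosomes to it and divide the cell. The 45 genes described here were chosen by symbol, and all 45 were among the 29804 symbols of the count table and among the 14672 genes that passed the expression filter. They were measured by RNA-seq in 22Rv1 cells, a prostate cancer cell line, in 6 libraries that form 3 groups of 2. WT cells were untreated and collected at week 0, and AM (age matched) cells were grown without treatment until week 6. The 6WP cells were grown for the same time and given 1 µg/ml of phleomycin for 1 hour on each week day. The drug was then washed off and fresh medium added. Phleomycin is a radiomimetic, a drug that breaks DNA, and the study asked how cells change when they are damaged and repair again and again. All groups derive from the same line and carry the genotype label WT. The label of 6WP replicate 1 gives its dose without a volume. Replicates were labelled biological, and whether they were carried as separate cultures for the 6 weeks is not stated, so p-values measure the spread between these libraries.

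Most of these genes are silent or low in resting cells and reach their highest mRNA level in G2 and mitosis. Many are controlled through their promoters by the MuvB complex, which represses them in quiescent cells as part of DREAM and activates them later together with B-MYB (the product of MYBL2) and FOXM1. MuvB binds an element called the cell cycle genes homology region (CHR), and the factor NF-Y binds CCAAT boxes nearby. In bulk RNA, fewer cells in mitosis and less of these mRNAs per cell cannot be told apart.

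Many of the members share promoter letters. The genes were chosen by symbol, but the CHR and CCAAT motifs searched are the elements named above for such genes. A high share could thus be foreseen. RefSeq promoters of GRCh38.p14, from 250 bases before to 50 after the start, were matched for 38 of the 45 members, and both strands were searched. The CHR core TTTGAA was present in 27 of the 38 (71.1%), against 9.25% of the 10384 promoters of tested genes and 15.4% of all 27305 promoters. CCAAT was present in 30 of 38 (78.9%), against 36.4% of tested genes and 35.7% of all promoters. Both motifs stood in 23 of 38 (60.5%), against 3.90% of tested genes. An E2F-type motif (TTTCCCGC, TTTGGCGC, TTTCGCGC or TTTGCCGC) was present in 4 of 38 (10.5%), against 5.23% of tested genes. In a list of genes of DNA replication and S phase, which peak earlier in the cycle, 22 of 45 promoters (48.9%) held the E2F-type motif and 1 of 45 (2.22%) the CHR core. The median position of the hit closest to the start was -23 for the CHR core and -54 for CCAAT. Neither was found in the windows searched for CDC25C, CENPE, KIF2C and MYBL2. Only 1 window per symbol was searched for these exact letters, so variant sites and sites at other starts were not seen. A match of letters is a description and does not show that a factor binds there.

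The 110 bases before the start are given below for 4 members that passed a test between groups and hold both motifs (MKI67, INCENP, KIF4A, KIF11) and for CDC20 and ESPL1, which hold both and differed strongly between the 6WP libraries. Capitals mark TTTGAA and CCAAT on either strand, so TTCAAA and ATTGG are the same motifs read from the other strand, and in MKI67 the last CHR core overlaps a CCAAT box. The stretches are chr10:128126424-128126533 (minus strand) for MKI67, chr11:62123901-62124010 (plus) for INCENP, chrX:70289994-70290103 (plus) for KIF4A, chr10:92593020-92593129 (plus) for KIF11, chr1:43358871-43358980 (plus) for CDC20 and chr12:53268189-53268298 (plus) for ESPL1. In GENCODE 44 they contain no exon, except for the last 13 bases of the INCENP stretch, and the KIF11 stretch lies inside that gene's span because another transcript starts further upstream.
MKI67: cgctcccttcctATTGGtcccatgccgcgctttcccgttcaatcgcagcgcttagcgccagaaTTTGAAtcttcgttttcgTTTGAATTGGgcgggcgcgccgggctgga
INCENP: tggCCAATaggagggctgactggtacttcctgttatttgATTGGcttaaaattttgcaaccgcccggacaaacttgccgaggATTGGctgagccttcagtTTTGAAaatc
KIF4A: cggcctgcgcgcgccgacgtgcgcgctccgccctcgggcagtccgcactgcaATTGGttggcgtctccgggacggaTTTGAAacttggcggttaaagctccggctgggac
KIF11: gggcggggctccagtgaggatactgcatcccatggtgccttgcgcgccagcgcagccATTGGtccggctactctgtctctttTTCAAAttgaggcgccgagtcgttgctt
CDC20: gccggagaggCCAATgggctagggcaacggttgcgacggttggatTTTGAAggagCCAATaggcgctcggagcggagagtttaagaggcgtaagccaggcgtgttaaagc
ESPL1: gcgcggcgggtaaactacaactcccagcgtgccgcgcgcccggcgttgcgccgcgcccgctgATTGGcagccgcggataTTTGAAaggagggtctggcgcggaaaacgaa

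**Figure D1:**
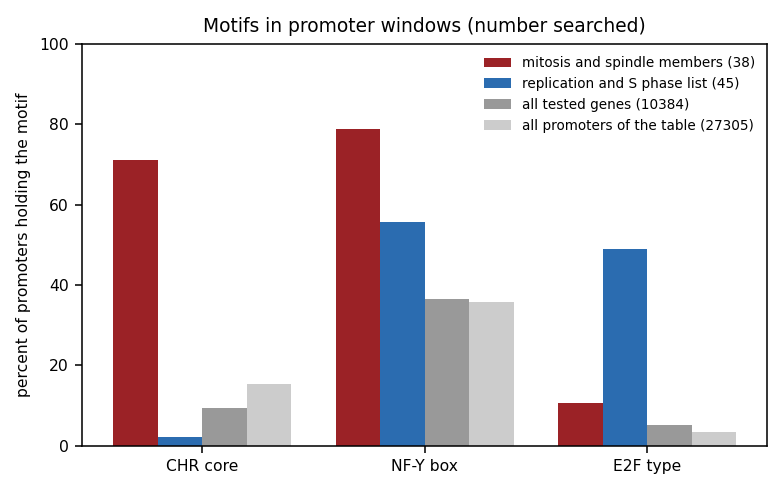
Percent of promoter windows that hold each motif on either strand (y axis) for the members, the replication and S phase list, all tested genes and all promoters, with the number searched in brackets; the NF-Y box is CCAAT. The members hold the CHR core in 71.1% of promoters and the S phase list in 2.22%, while the E2F-type motif is held by 10.5% and 48.9%.

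Library totals lay between 21222201 and 35311945 counts, and the limit of detection of 3 counts equalled 0.0850 to 0.141 CPM (counts scaled to the library total). The lowest level of any member in any library was 4.76 TMM-normalized CPM, far above this limit. Of 11 markers of prostate luminal epithelium, all were detected in every library, with a summed level of 3510 and 3711 CPM in WT, 2418 and 2740 in AM, and 2892 and 4097 in 6WP replicates 1 and 2. Fibroblast markers (9) summed to 21.0 and 17.1 CPM in WT, mostly LUM, and to between 2.27 and 5.57 CPM in the other libraries. Blood markers (5) summed to at most 1.16 CPM with PTPRC and CD3E at 0 throughout, and endothelial markers (4) to at most 0.138 CPM with CDH5 and KDR at 0 throughout.

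The 6WP libraries differed widely in these genes, so each is given on its own. Of all counts, the members together took 0.478% and 0.433% in WT, 0.624% and 0.581% in AM, 0.534% in 6WP replicate 1 and 0.222% in 6WP replicate 2. Replicate 2 of 6WP was the lowest of the 6 libraries for 45 of 45 members, where the same was true of 21.8% of all tested genes. It was at least 2-fold below replicate 1 for 36 of 45 members (80.0%), against 4.31% of tested genes. The median log2 ratio of replicate 2 over replicate 1 was -1.24 over the members and -0.01 over all tested genes. Over all genes too the 6WP libraries were further apart, with a median standard deviation of log2 CPM of 0.196. It was 0.0854 in WT and 0.0911 in AM. Within the other groups the members were close, with a median fold between replicates of 1.12 in WT and 1.07 in AM, against 2.37 in 6WP.

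**Figure D2:**
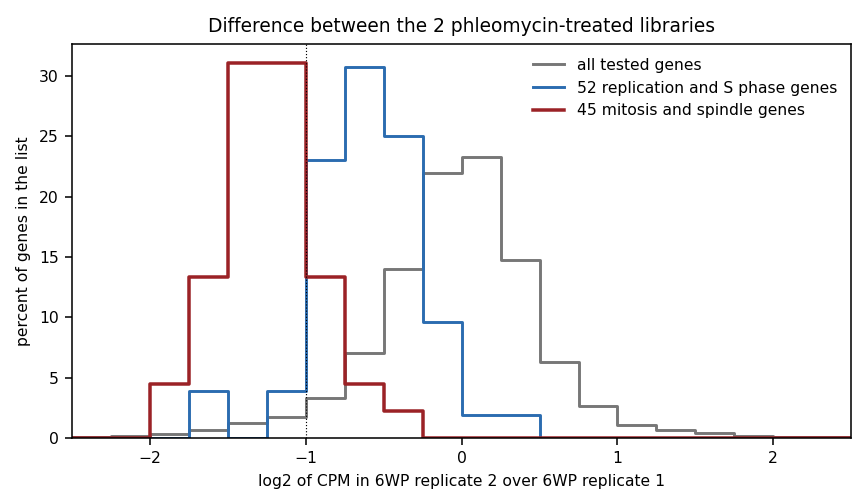
Percent of genes (y axis) by the log2 ratio of CPM in 6WP replicate 2 over replicate 1 (x axis, bins of 0.25) for all tested genes, the replication and S phase list and the members; the dotted line marks a 2-fold lower level. The members lie to the left, with a median of -1.24, and all tested genes centre on -0.01.

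CDC25C, the phosphatase that activates CDK1 at mitotic entry, differed most, at 38.2 CPM in 6WP replicate 1 and 9.86 in replicate 2 (3.88-fold, 95% interval 3.40 to 4.44 for counting error only). The next widest were MYBL2 (3.38-fold), HMMR (3.20-fold), CDC20 (3.09-fold), ESPL1 (3.07-fold) and AURKB (3.03-fold). HMMR is a spindle protein, CDC20 activates the anaphase-promoting complex (APC/C), ESPL1 is the protease separase and AURKB is the kinase of the chromosomal passenger complex. BUB3, a checkpoint protein, differed least, at 179 and 132 CPM (1.36-fold, interval 1.30 to 1.42), followed by the kinetochore protein CENPF (1.43-fold) and the kinesin KIF14 (1.60-fold). Even these were lower in replicate 2. Ribosomal protein genes took 12.7% of counts in 6WP replicate 2 and 10.2% in replicate 1, against 9.93% and 9.98% in WT and 6.56% and 7.43% in AM, and the luminal markers were also highest in replicate 2. Their part in the difference was not tested.

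**Figure D3:**
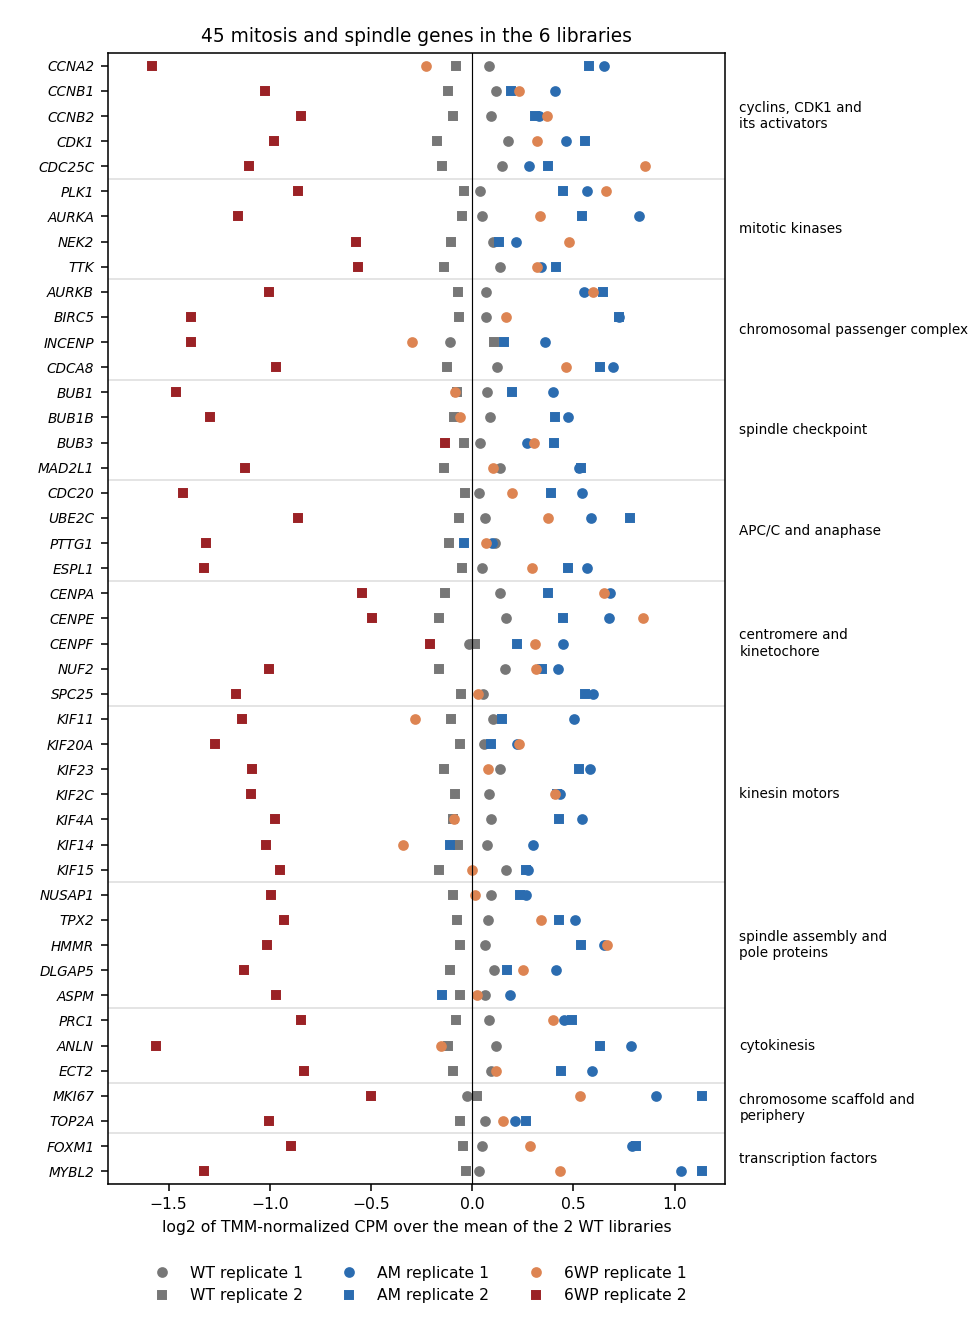
Log2 of TMM-normalized CPM over the mean of the 2 WT libraries on the log2 scale (x axis) for each of the 45 members, grouped by role; circles are replicate 1 and squares replicate 2 of WT (grey), AM (blue) and 6WP (orange and dark red). The dark red squares of 6WP replicate 2 lie furthest left for 45 of 45 members, and the orange circles of 6WP replicate 1 lie above both WT libraries for 30.

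The first comparison, AM against WT, sets untreated cells at week 6 beside untreated cells at week 0, and time in culture cannot be told apart from other differences between these collections. Both AM libraries were above both WT libraries for 42 of 45 members, against 36.9% of tested genes, and the exceptions were PTTG1 (securin, which holds separase inactive), KIF14 and ASPM (a spindle pole protein). An AM library was the highest of all 6 for 37 of 45 members, against 32.8% of tested genes. The fitted log2 fold change was positive for 45 of 45, from 0.03 in PTTG1 to 1.08 in MYBL2, with a median of 0.47, where the median over all tested genes was 0.00. In edgeR's quasi-likelihood test over all 6 libraries, 1 of 45 members rose and 0 fell at an adjusted p under 0.05, while 7.74% of all tested genes rose and 9.93% fell. At an unadjusted p under 0.05 the same test gave 3 of 45 members (MKI67, FOXM1 and MYBL2). Over all tested genes it gave 5185 of 14672, a larger share.

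That test shares 1 estimate of the spread among the groups, and the members' spread is set largely by the 6WP libraries. With the 6WP libraries left out of the fit, 39 of 45 members rose in AM cells, against 23.8% of tested genes, and the median log2 fold change was again 0.47. The other 6 were ASPM, KIF14, KIF15, KIF20A, NEK2 and PTTG1. The size of the difference therefore barely moved and its calls depended on which libraries gave the spread.

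MKI67 (chromosome 10, 128096659 to 128126423), which encodes the chromosome surface protein Ki-67, was the member that rose in the fit to all libraries. Its levels were 43.9 and 45.4 CPM in WT, 83.8 and 97.9 in AM, and 64.6 and 31.6 in 6WP replicates 1 and 2. Both AM libraries stood above every other library, and the log2 fold change of AM against WT was 1.03 (standard error 0.28, adjusted p = 0.0418 in edgeR's test). This call was lost with upper quartile scaling, with library size alone as scaling, and without either WT or either AM library.

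The transcription factors MYBL2 and FOXM1 showed the same order. MYBL2 was at 80.6 and 77.0 CPM in WT, 161 and 173 in AM, and 106 and 31.5 in 6WP. Its AM libraries were well apart from the rest, and the log2 fold change of 1.08 had a standard error of 0.44 (adjusted p = 0.121 in edgeR's test over all libraries, 3.95e-08 without 6WP). FOXM1 was at 194 and 182 CPM in WT, 325 and 329 in AM, and 229 and 101 in 6WP, with a log2 fold change of 0.80 in AM against WT (standard error 0.31, adjusted p = 0.106 with all libraries and 7.22e-07 without 6WP in edgeR's test).

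**Figure D4:**
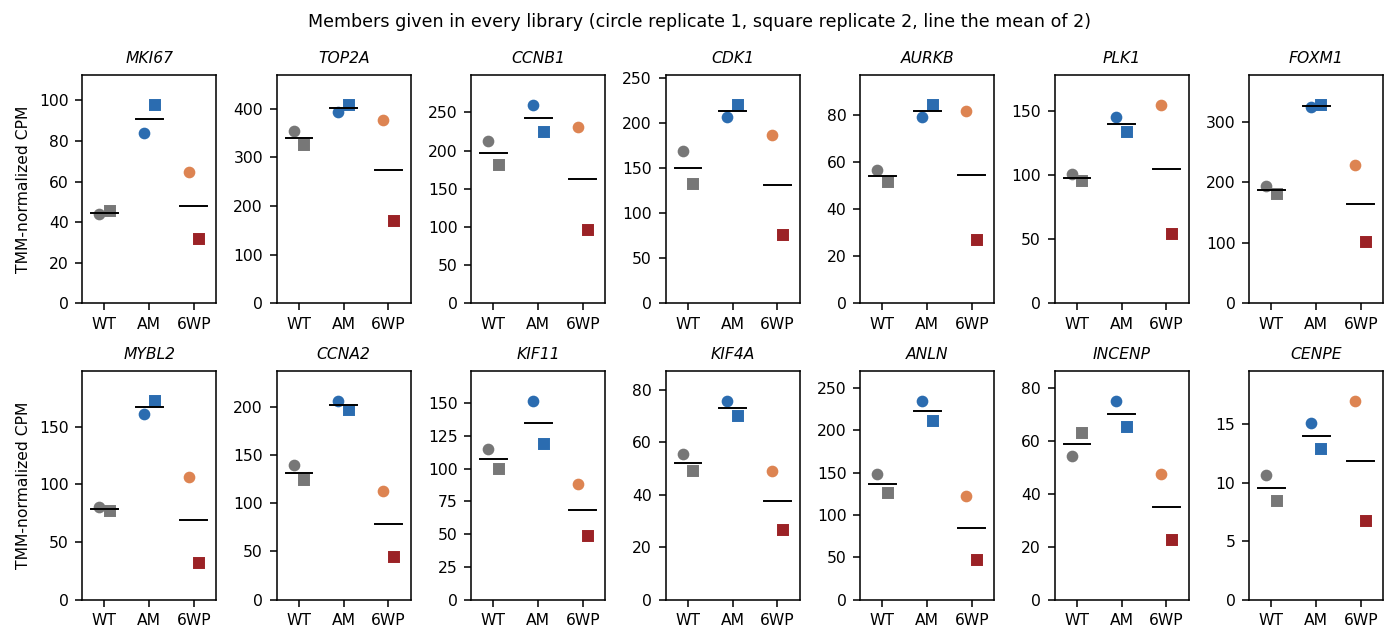
TMM-normalized CPM (y axis, from 0) in the 6 libraries (x axis, by group) for 14 members: 8 set by name, those that passed a test between groups and those with the largest change either way. Circles are replicate 1, squares replicate 2 and lines the mean of 2; in 6WP the square lies below the circle in every panel.

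The next comparison, 6WP against AM, sets cells cultured for the same time side by side, which differ in the daily drug treatment. Whether AM cells were washed in the same way is not stated. In edgeR's test over all 6 libraries 5 members fell and 0 rose, against 9.68% of tested genes that fell and 11.7% that rose. The 5 of 45 amount to about the background share. The fitted log2 fold change was negative for 45 of 45 members, from -1.40 in ANLN to -0.13 in NEK2, with a median of -0.67 against 0.05 over all tested genes. At an unadjusted p under 0.05 the test gave 20 of 45 members and, in either direction, 5449 of 14672 tested genes. This comparison uses the same AM libraries as the previous one, so a high value in AM enters both.

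ANLN (chromosome 7, 36389821 to 36453791), the scaffold protein anillin of the cleavage furrow, was at 148 and 126 CPM in WT, 235 and 211 in AM, and 122 and 46.2 in 6WP. Both 6WP libraries lay below all others, and the log2 fold change against AM was -1.40 (standard error 0.37, adjusted p = 0.0321 in edgeR's test). CCNA2 (chromosome 4, 121816444 to 121823883), the cyclin A that drives S phase and mitotic entry, was at 139 and 125 CPM in WT, 207 and 197 in AM, and 113 and 44.0 in 6WP. It had the same order of libraries, with a log2 fold change of -1.37 against AM (standard error 0.35, adjusted p = 0.0302 in edgeR's test).

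INCENP (chromosome 11, 62123998 to 62153169), the scaffold of the chromosomal passenger complex, was at 54.4 and 63.3 CPM in WT, 75.4 and 65.5 in AM, and 47.7 and 22.4 in 6WP (log2 fold change against AM -1.01, standard error 0.30, edgeR adjusted p = 0.0465). KIF11 (chromosome 10, 92574105 to 92655395), the motor that pushes spindle poles apart, was at 115 and 99.6 CPM in WT, 152 and 118 in AM, and 87.9 and 48.7 in 6WP (-0.98, standard error 0.26, edgeR adjusted p = 0.0309). For these genes too, both 6WP libraries were below all others. KIF4A (chromosome X, 70290104 to 70420886), a chromosome-bound motor, was at 55.7 and 49.0 CPM in WT, 76.0 and 70.3 in AM, and 49.0 and 26.6 in 6WP (-0.95, standard error 0.25, edgeR adjusted p = 0.0309). Its 6WP replicate 1 lay level with the lower WT library. Exons of 13 members overlap an exon of a gene on the opposite strand, among them CCNA2, KIF4A, ANLN, CDC25C, HMMR and FOXM1. Those of 4 members overlap an exon on the same strand. The strand setting of the counting is not given in the sources used here.

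In 6WP against AM, 3131 of 14672 tested genes were called in either direction. This total was 3483 of 20440 without the low-count filter and 3490 of 14672 with DESeq2. The 5 member calls depended on the fit. They numbered 18 with the low-count filter dropped, 14 with DESeq2 and 0 when the WT libraries, or any 1 WT or AM library, were left out. With 6WP replicate 1 left out all 45 members fell, and with replicate 2 left out 19 fell and 1 rose.

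Against WT cells, 0 of 45 members were called in 6WP cells by edgeR's quasi-likelihood test, where 3.00% of tested genes were. DESeq2 also called 0 members, and 1124 of 14672 tested genes. At an unadjusted p under 0.05 edgeR gave 3 of 45 members (INCENP, KIF11 and KIF14) and 3283 of 14672 tested genes, a larger share. The fitted log2 fold changes ran from -0.75 in CCNA2 (standard error 0.35, edgeR adjusted p = 0.251) to 0.32 in CENPE (standard error 0.38, edgeR adjusted p = 0.661), 35 negative and 10 positive, with a median of -0.27 against 0.01 over all tested genes. This mean joins 2 libraries on opposite sides of WT. On the log2 scale the median member was 0.29 above the WT mean in 6WP replicate 1 and 1.00 below it in replicate 2.

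Replicate 1 of 6WP was above both WT libraries for 30 of 45 members, against 42.7% of tested genes, and below both for 6 (CCNA2, INCENP, BUB1, KIF11, KIF14 and ANLN), against 41.8%. It was below both AM libraries for 30 members, against 39.6% of tested genes, and above both for 7, against 45.9%. Those 7 were CCNB2, CDC25C, PLK1, NEK2, CENPE, KIF20A and HMMR.

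Fits that keep only 1 of the 6WP libraries assume that it varies as the WT and AM libraries do, and so describe that library rather than the treatment. With replicate 1 alone, edgeR called 16 of 45 members higher than in WT and 0 lower, against 12.4% of tested genes higher and 13.5% lower. The 16 were AURKB, BUB3, CCNB2, CDC25C, CDCA8, CENPA, CENPE, HMMR, KIF2C, MKI67, MYBL2, NEK2, PLK1, PRC1, TPX2 and UBE2C. Against AM, replicate 1 alone gave 19 members lower and 1 higher (CDC25C), against 17.5% and 16.0% of tested genes. With replicate 2 alone, 42 of 45 members were lower than in WT, against 14.0% of tested genes, and the others were BUB3, CENPE and CENPF. Against AM, replicate 2 alone gave 45 of 45 lower, against 22.4% of tested genes.

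PLK1, AURKB, CDK1 and CCNB1 had their 6WP libraries on opposite sides of WT. PLK1, the kinase which acts from mitotic entry to cytokinesis, was at 101 and 95.7 CPM in WT, 145 and 134 in AM, and 155 and 54.2 in 6WP, so that 6WP held both the highest and the lowest library. Exons of PLK1 overlap those of genes on the opposite strand. AURKB was at 56.6 and 51.4 CPM in WT, 79.1 and 84.3 in AM, and 81.7 and 26.9 in 6WP. Its 6WP replicate 1 lay inside the range of the AM libraries and its replicate 2 below WT. The log2 fold changes of 6WP against WT were 0.09 for PLK1 (standard error 0.39) and 0.01 for AURKB (standard error 0.40), a mean near 0 with a wide error.

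CDK1, the mitotic kinase itself, was at 169 and 133 CPM in WT, 207 and 221 in AM, and 187 and 75.9 in 6WP. CCNB1, its partner cyclin B1, was at 213 and 181 CPM in WT, 260 and 224 in AM, and 230 and 96.4 in 6WP. In both, 6WP replicate 1 was higher than WT and replicate 2 lower than every other library, and neither passed the test in any comparison over all libraries. TOP2A, the topoisomerase that untangles sister chromatids, was the member with the highest level, at 355 and 326 CPM in WT, 394 and 409 in AM, and 378 and 170 in 6WP. CENPE, a kinetochore motor, had low levels of 10.6 and 8.45 CPM in WT, 15.1 and 12.9 in AM, and 17.0 and 6.73 in 6WP. Per kilobase of exon, mean levels in WT ran from 0.960 CPM per kb for CENPE to 84.3 for CDC20, and in 6WP from 1.20 for CENPE to 67.1 for CCNB1.

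By role, the medians of 6WP replicate 1 over the WT mean ranged from -0.0015 on the log2 scale for the 7 kinesin motors to 0.41 for the 4 mitotic kinases (PLK1, AURKA, NEK2 and TTK). Those of replicate 2 ranged from -1.32 for the 4 genes of APC/C and anaphase (CDC20, UBE2C, PTTG1 and ESPL1) to -0.54 for the 5 genes of centromere and kinetochore (CENPA, CENPE, CENPF, NUF2 and SPC25). The 4 checkpoint genes (BUB1, BUB1B, BUB3 and MAD2L1) had a median of 0.02 in replicate 1 and -1.21 in replicate 2. The passenger complex (AURKB, BIRC5, INCENP and CDCA8) had 0.31 and -1.20. Every role had a positive median in both AM libraries and a negative one in 6WP replicate 2.

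Further genes of the same processes, none of them members, were grouped in 6 lists. The median log2 ratio of 6WP replicate 2 over replicate 1 was -0.95 in kinetochore and centromere genes. It was -0.87 in G2/M kinases and transcription and -0.86 in spindle, motors and centrosome. In condensin and cohesin, APC/C and checkpoint, and cytokinesis it was -0.30, -0.26 and -0.25. In 6WP against AM, edgeR called 15 of 36 tested kinetochore and centromere genes lower, 9 of 21 of condensin and cohesin, 6 of 20 of APC/C and checkpoint, 13 of 39 of spindle, motors and centrosome, 2 of 10 of cytokinesis and 8 of 27 of G2/M kinases and transcription, beside the 9.68% of all tested genes. A single gene of these lists rose, NUMA1 of the spindle poles (log2 fold change 0.51, standard error 0.14, edgeR adjusted p = 0.0398). In AM against WT the same lists had 5, 2, 6, 4, 1 and 1 genes higher and 0 lower, beside 7.74% of all tested genes that rose. Against WT, 2 of these genes were lower in 6WP, MIS12 of the kinetochore and ESCO2 of cohesion, beside 1.37% of all tested genes, a share from which nothing particular to the lists can be read.

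MIS12 was at 52.7 and 50.1 CPM in WT, 74.9 and 73.0 in AM, and 33.2 and 30.6 in 6WP (log2 fold change against WT -0.69, standard error 0.11, edgeR adjusted p = 0.0225). ESCO2, which acetylates cohesin in S phase, was at 48.2 and 46.1, 72.0 and 61.2, and 24.8 and 12.3 CPM (-1.35, standard error 0.28, edgeR adjusted p = 0.0457). In both genes the 6WP libraries were below both WT libraries, and they were close to each other in MIS12 but not in ESCO2.

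The list of DNA replication and S phase was taken beside the members because it marks an earlier step of the cycle. Its median in AM replicates 1 and 2 was 0.63 and 0.67 above WT on the log2 scale, where that of the members was 0.50 and 0.42. In 6WP replicate 1 it was -0.14 where the members stood at 0.29, and in 6WP replicate 2 it was -0.69 where they stood 1.00 below WT. Over all 6 libraries 45 of 52 genes of this list were lower in 6WP than in AM in edgeR's test, with a median of -1.01, where 5 of 45 members were, with a median of -0.67, and 9.68% of all tested genes. Over the AM mean on the log2 scale, the median of this list was -0.81 in 6WP replicate 1, where the members stood at -0.20. In 6WP replicate 2 it was -1.36, where they stood at -1.46, so over AM the lists were further apart in replicate 1. Over WT the lists differed in both 6WP libraries, in opposite directions. The median log2 ratio of 6WP replicate 2 over replicate 1 was -0.62 in this list and -1.24 in the members. This wider spread enters the members' count of calls. CDC6, which loads the replicative helicase, is the list's largest fall against AM, at 98.3 and 84.0 CPM in WT, 201 and 192 in AM, and 60.2 and 40.8 in 6WP (-1.96, standard error 0.19, edgeR adjusted p = 0.00202).

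The summed CPM of the members divided by that of the S phase list was 0.834 and 0.814 in WT, 0.752 and 0.682 in AM, 1.06 in 6WP replicate 1 and 0.680 in 6WP replicate 2. The ratio was highest in 6WP replicate 1, and that of 6WP replicate 2 was level with AM replicate 2. The difference between the lists was not tested.

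**Figure D5:**
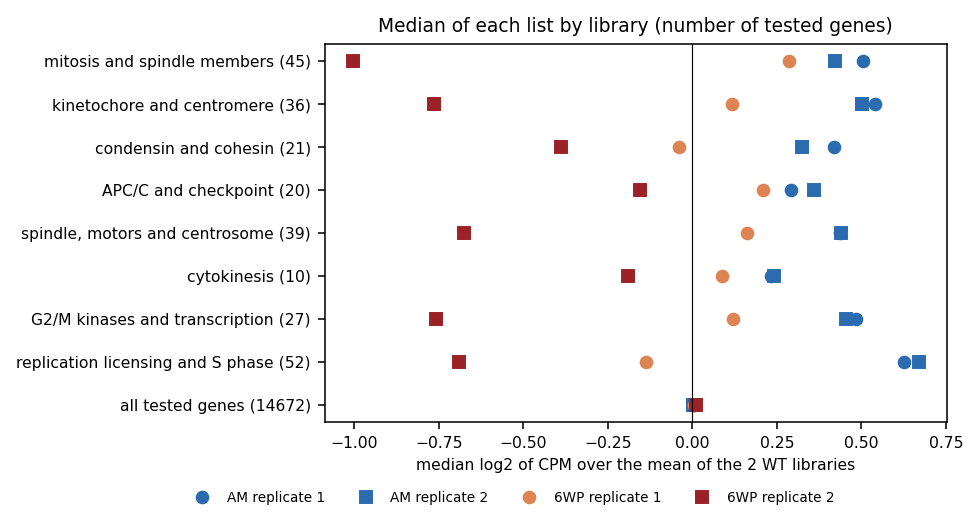
Median log2 of CPM over the mean of the WT libraries (x axis) for the members, 7 further lists and all tested genes (y axis, number of tested genes in brackets) in each AM and 6WP library. For the members the medians are 0.50 and 0.42 in AM, 0.29 in 6WP replicate 1 and 1.00 below 0 in replicate 2, and for all tested genes they lie near 0.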

How the data were processed

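RNA-seq of 22Rv1 cells gave 6 libraries (100 bp single end, stranded TruSeq preparation). Counts of reads per gene symbol were deposited by the authors as whole numbers that had not been normalized. Per the paper, reads were aligned to hg38 with STAR 2.5.3a and assembled with StringTie 1.3.3. The submitters' processing notes also name featureCounts 1.5.3, edgeR 3.22.3 and R 3.5.0. The strand setting and annotation of the counting are not given in the sources used here. Of the columns, 0 were left out.

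With R 4.3.3 and edgeR 4.0.16, genes were kept by filterByExpr with the 3 groups, TMM factors were computed, and all 6 libraries entered a quasi-likelihood model. P-values (two-sided) of each of 3 comparisons were adjusted over 14672 genes (Benjamini-Hochberg) and read at a threshold of 0.05. Standard errors are the log2 fold change over the root of the F statistic. The smallest p of an exact permutation test of 2 against 2 libraries is 0.333. CPM are TMM normalized and scaled to library totals of 21222201 to 35311945. The fit was tested on simulated counts. Those counts had the same spread in all genes and groups, so this does not test a group whose 2 libraries differ.

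The main fit did not pair libraries by replicate number, since nothing in the labels says that a number marks a shared culture or day (sensitivity below). Alternatives were other scalings, filters, DESeq2 1.42.0, a replicate block, fits to 2 groups, and each library left out. Positions and exon lengths are from GENCODE 44 on GRCh38, and promoters from RefSeq on GRCh38.p14. No protein sequences were used here.

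The members and lists were chosen with earlier results of these data known. All 45 members may be named. Every library is given for 8 members set by name (MKI67, TOP2A, CCNB1, CDK1, AURKB, PLK1, FOXM1 and MYBL2), for members past the threshold in any comparison and for the largest change either way, and other lists are named by their 2 largest called rises and falls, where a result turns on them. CDC25C, BUB3 and other members named for the ratio between the 6WP libraries were picked after their values were seen.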

Additional observations from a re-analysis of the deposited data

How the results depend on the processing

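Under other scalings, filters and tests, counts of called members changed and their direction did not. In 6WP against WT the direction depended on which 6WP library was kept (below). In 6WP against AM, the 5 called members (all lower) became 9 with DESeq2's size factors, 18 without the low-count filter, 14 with DESeq2's Wald test and 0 in a fit to these groups only. In AM against WT, the 1 called member (higher) became 0 with upper quartile or library size scaling, 3 without the filter, 2 with DESeq2 and 39 in a fit to these groups only. Genes called in all were 440 in 6WP against WT, and 894 without the filter, 1124 with DESeq2 and 96 in a fit to these groups only. In 6WP against AM they were 3131, and 3198 with DESeq2's size factors, 3483 of 20440 without the filter and 3490 with DESeq2's Wald test. In AM against WT they were 2593, and 2521 with upper quartile scaling and 2398 with library size scaling. They were 3023 without the filter and 3051 with DESeq2. In a fit to the compared groups only, 1309 were called in 6WP against AM and 6620 in AM against WT. Over all tested genes, the same-numbered libraries' deviations correlated at 0.0395 (WT and AM), 0.0873 (WT and 6WP) and -0.0206 (AM and 6WP). Such weak correlations do not show whether libraries with the same number shared a culture or day. Among the members, replicate 2 was below replicate 1 for 42 of 45 in WT, 33 in AM and 45 in 6WP. Over all 14672 tested genes these counts were 7289, 6590 and 7421. A replicate block gave 18 members lower in 6WP against AM, where it called 3069 of 14672 tested genes in either direction.

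With each library left out in turn, called members ranged from 0 to 42 in 6WP against WT (0 to 16 higher, 0 to 42 lower), from 0 to 45 in 6WP against AM (0 to 1 higher, 0 to 45 lower) and from 0 to 39 in AM against WT, where all were higher. The extremes of the first 2 came without 6WP replicate 1 (42 and 45 lower) and without 6WP replicate 2 (16 and 1 higher). The genes called ranged from 0 to 3870, from 116 to 6807 and from 67 to 6654. The members' median log2 fold change in 6WP against WT ranged from -1.03 to 0.26 and turned positive without 6WP replicate 2.

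Single members turned direction in 6WP against WT, where none had been called. AURKB went to -0.014 with DESeq2's size factors, -0.013 with its Wald test, -0.0027 with library size scaling and -0.11 with the replicate block, which also took PLK1 to -0.038. AURKB was also negative without WT replicate 2 (-0.064) and without AM replicate 2 (-0.0011). In the order without 6WP replicate 1 and without 6WP replicate 2, the log2 fold change was -0.51 and 0.51 for MKI67, -1.02 and 0.12 for TOP2A, -1.05 and 0.20 for CCNB1, -1.01 and 0.28 for CDK1, -1.02 and 0.57 for AURKB, -0.88 and 0.63 for PLK1, -0.91 and 0.26 for FOXM1, -1.34 and 0.41 for MYBL2, and -0.52 and 0.81 for CENPE. In 6WP against AM it was -1.37 and 0.12 for PLK1 and -1.06 and 0.25 for CENPE. These fits keep 1 library of 6WP, which leaves out the difference between the 6WP replicates (the standard error of AURKB in 6WP against WT was 0.40 with both, 0.11 with replicate 1 and 0.12 with replicate 2). The cause of the other changes was not tested.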
